A study of Mus musculus with 12 samples.

Results

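The 10 genes described here encode the enzymes that build, lengthen and desaturate fatty acids: Acly, Acaca and Fasn (synthesis), Elovl1, Elovl5 and Elovl6 (elongation), and Scd1, Scd2, Fads1 and Fads2 (desaturation). They were chosen by name, and all 10 were found among the 47937 genes with a read count, after the Ensembl identifiers had been matched to mouse symbols without their version. The 12 libraries were made from C57BL/6 bone marrow-derived macrophages, grown with CSF-1, and form 4 groups with 3 libraries in each. These are resting cells (M0), for which the labels give no time, cells activated over 18 h by IFNγ at 50 ng/ml together with LPS at 20 ng/ml, resting cells kept for 18 h with T863 (50 μM), an inhibitor of the triglyceride-forming enzyme DGAT1 (DGAT1i), and cells given IFNγ, LPS and T863 together over 18 h. In 2 of the 3 resting libraries with inhibitor, the description names another compound number but the source name reads T863, which was taken for all 3. The labels name no animals or cultures, so that p-values measure only the spread between these samples, which may be technical. The comparisons asked how activation changes the expression of these genes, whether it does so in the presence of DGAT1i, and what DGAT1i changes in resting and in activated cells.

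Fatty acids are made in the cytosol from citrate: ATP citrate lyase (Acly) releases acetyl-CoA, acetyl-CoA carboxylase 1 (Acaca) carboxylates it to malonyl-CoA, and fatty acid synthase (Fasn) joins these units into palmitate. The elongases of the endoplasmic reticulum add further carbons, Elovl6 to palmitate, Elovl5 to polyunsaturated and Elovl1 to very long saturated and monounsaturated chains, while the stearoyl-CoA desaturases (Scd1, Scd2) make monounsaturated fatty acids and Fads1 and Fads2 desaturate the precursors of arachidonic acid. SREBP1c, encoded by Srebf1, and the liver X receptors drive transcription of many of these genes, and in macrophages the products serve membranes, lipid droplets and lipid mediators.

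The members lie on 5 chromosomes of GRCm38 in GENCODE release M21, and all are protein coding. On chromosome 11 are Acly (ENSMUSG00000020917.17, 100476353 to 100528000), Acaca (ENSMUSG00000020532.18, 84129672 to 84401651) and Fasn (ENSMUSG00000025153.9, 120805846 to 120824547). On chromosome 19 are Scd1 (ENSMUSG00000037071.2, 44394455 to 44407879), Scd2 (ENSMUSG00000025203.5, 44293674 to 44306864), Fads1 (ENSMUSG00000010663.4, 10182888 to 10196877) and Fads2 (ENSMUSG00000024665.7, 10062765 to 10101746). Elovl1 (ENSMUSG00000006390.15) is on chromosome 4 from 118428093 to 118432953, Elovl5 (ENSMUSG00000032349.13) on chromosome 9 from 77917364 to 77984519, and Elovl6 (ENSMUSG00000041220.10) on chromosome 3 from 129532355 to 129638495.

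Promoter windows of RefSeq on GRCm38.p6, from 250 bases before to 50 bases after a start site, were found for 7 of the 10 members. There was none for Scd1, Scd2 and Fads1. Both strands were searched for 4 motifs: the sterol regulatory element TCACNCCAC, which 1.24% of 32851 windows of this length hold, the E-box CACGTG (7.15%), the CCAAT box CCAAT (37.4%), and the DR4 element of nuclear receptors, a direct repeat of AGGTCA with 4 bases between (0.0152%). Windows of 4 genes are shown because their genes responded differently: Fasn and Elovl5 fell on activation, Fads2 was left with 1 read, and Elovl1 rose. Each is written 5′ to 3′ on the strand of its gene, with the motif letters in capitals.
Fasn (chr11:120824498-120824797, minus strand): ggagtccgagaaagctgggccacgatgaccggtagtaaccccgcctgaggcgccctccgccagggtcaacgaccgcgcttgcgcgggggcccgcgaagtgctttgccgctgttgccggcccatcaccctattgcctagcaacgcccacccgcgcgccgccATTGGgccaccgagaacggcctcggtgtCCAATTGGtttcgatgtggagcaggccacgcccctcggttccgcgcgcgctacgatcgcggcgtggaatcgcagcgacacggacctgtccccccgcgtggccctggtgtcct
Elovl5 (chr9:77917115-77917414, plus strand): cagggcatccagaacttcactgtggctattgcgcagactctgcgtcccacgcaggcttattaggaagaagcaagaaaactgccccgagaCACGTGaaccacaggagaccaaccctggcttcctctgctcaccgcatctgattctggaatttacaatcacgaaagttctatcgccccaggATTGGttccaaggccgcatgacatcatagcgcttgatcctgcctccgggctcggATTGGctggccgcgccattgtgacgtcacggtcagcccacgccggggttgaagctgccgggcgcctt
Fads2 (chr19:10101454-10101753, minus strand): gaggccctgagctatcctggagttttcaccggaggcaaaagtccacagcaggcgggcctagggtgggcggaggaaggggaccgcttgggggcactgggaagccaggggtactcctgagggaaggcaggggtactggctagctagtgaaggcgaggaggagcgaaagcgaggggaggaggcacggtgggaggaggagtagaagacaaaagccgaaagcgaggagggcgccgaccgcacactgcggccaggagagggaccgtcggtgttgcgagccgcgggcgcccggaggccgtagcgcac
Elovl1 (chr4:118427843-118428142, plus strand, the first of 2 start sites): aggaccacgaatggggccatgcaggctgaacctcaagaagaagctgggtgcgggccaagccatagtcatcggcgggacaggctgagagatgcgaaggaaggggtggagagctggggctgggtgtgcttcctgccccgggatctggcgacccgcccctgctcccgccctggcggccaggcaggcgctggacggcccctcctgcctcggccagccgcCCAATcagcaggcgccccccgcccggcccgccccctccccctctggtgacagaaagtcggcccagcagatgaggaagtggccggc
Counted from the start site as 0, the Fasn window held CCAAT boxes, on either strand, with their first bases at -90, -62 and -59, the last 2 of which overlap. The Elovl5 window held the E-box at -161 and CCAAT boxes at -71 and -17, and the Elovl1 window a CCAAT box at -35. The Fads2 window held none of these letters, nor did those of Acaca, Elovl6 and the second start site of Elovl1. The Acly window held a CCAAT box at 37, behind the start site. The sterol regulatory element and the DR4 element, as spelled here, matched in none of the members' windows. These matches describe the letters in the windows and were not tested as binding sites.

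Libraries held 4996014 to 6621671 reads on genes, and 11760 genes had enough reads for a test by edgeR's filterByExpr. Levels are given as CPM, the reads of a gene scaled to the TMM-adjusted size of the library. In these libraries 1 CPM stood for 4.28 to 7.58 reads. The 10 members together took 0.0790% to 0.0839% of the reads in M0 and 0.0340% to 0.0357% after IFNγ + LPS, against 0.0715% to 0.0791% and 0.0331% to 0.0354% in the same groups with DGAT1i. The share of reads on these genes was thus lower in each activated library than in each resting one. Of the members, 9 passed the filter and Scd1, with 1 to 10 reads per library, did not. Elovl6 passed it only through the libraries without IFNγ + LPS and Fads2 only through M0. Counts and medians over the members that passed are therefore descriptions and carry no weight for the direction of change.

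Compared per exon length, the members spanned a wide range of levels, and the order was led by the first enzyme of the pathway and by an elongase. In M0, Acly stood at 37.9 ± 1.06 RPKM (SD, n = 3), followed by Elovl1 at 26.5 ± 1.13. Elovl5 (19.8 ± 1.44) and Fads1 (19.1 ± 0.324) overlapped and were not separated by their spread. Fasn followed at 13.2 ± 0.295 and Scd2 at 9.46 ± 1.00, with no overlap between neighbours. Acaca (1.96 ± 0.154), Elovl6 (1.78 ± 0.165) and Fads2 (1.75 ± 0.257) lay together, and Scd1 was lowest at 0.168 ± 0.0780. After IFNγ + LPS, Elovl1 stood first at 38.0 ± 0.932 RPKM (SD, n = 3) and Acly second at 33.3 ± 1.65. Elovl5 (8.35 ± 1.13), Scd2 (6.45 ± 0.299), Fads1 (4.18 ± 0.506), Fasn (1.97 ± 0.172) and Acaca (1.14 ± 0.130) followed without overlap, while Elovl6, Scd1 and Fads2 formed an overlapping group at 0.175, 0.0665 and 0.0213 RPKM. With DGAT1i added to IFNγ + LPS, Scd2 moved ahead of Elovl5, at 16.1 ± 1.45 RPKM against 9.41 ± 1.03 for Elovl5. The median level of the 10 members was 11.3 RPKM in M0 and 3.07 RPKM after IFNγ + LPS, and 11.6 and 2.78 RPKM in the same groups with DGAT1i. These levels depend on the exon length used, since all annotated exons of a gene are 1.00 to 1.79 times as long as its longest transcript, most for Acaca and Elovl1.

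**Figure D1:**
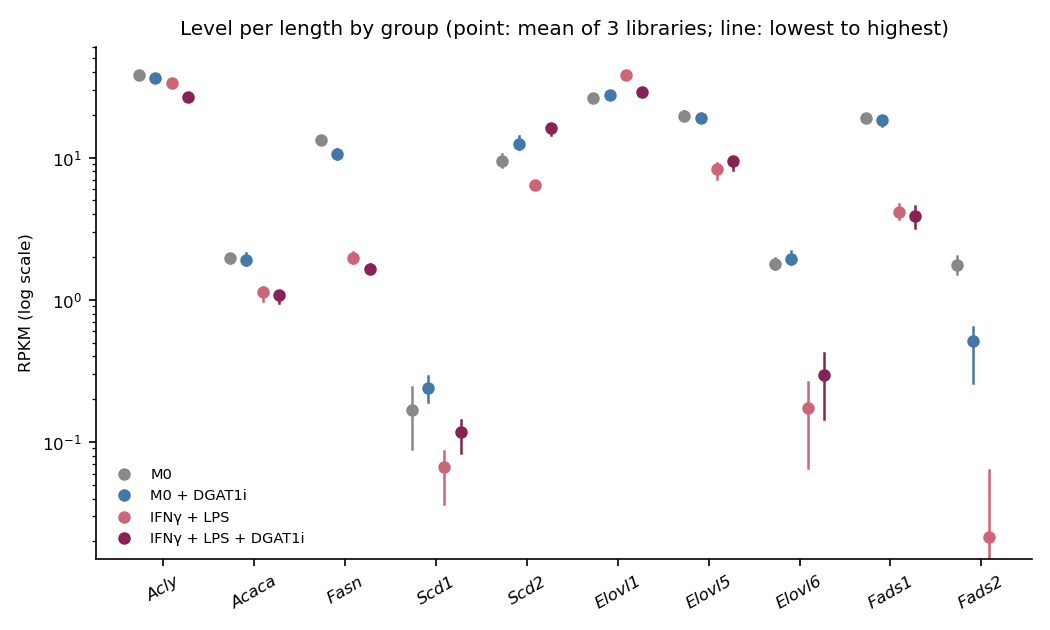
Level per exon length of the 10 members, with RPKM on a log scale on the vertical axis, the genes on the horizontal axis, points for the mean of 3 libraries and lines from the lowest to the highest library in each of the 4 groups. Acly and Elovl1 lie highest in every group, and Scd1 lies below 0.3 RPKM. Fads2 has no point in IFNγ + LPS with DGAT1i, where it is at 0. In IFNγ + LPS, where 2 libraries are at 0, its line is cut at the lower end of the axis.

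Activation by IFNγ + LPS changed the 3 synthesis enzymes unequally, with the weakest effect on the first enzyme of the pathway and the strongest on the last. Acly, which supplies cytosolic acetyl-CoA, was counted at 201, 205 and 194 CPM in M0 and at 176, 185 and 167 CPM after IFNγ + LPS. The groups did not overlap, and the log2 fold change was -0.19 (SE, the standard error of the fit, 0.06; adjusted p = 0.00245 by the quasi-likelihood test of edgeR, Benjamini-Hochberg over all genes tested). Acaca, whose malonyl-CoA is the building block of the chain, went from 36.0, 33.7 and 30.8 CPM to 20.8, 20.5 and 16.9 CPM, a log2 fold change of -0.79 (SE 0.11, adjusted p = 1.32e-08, edgeR). Fasn fell from 143, 148 and 143 CPM to 21.3, 23.6 and 19.9 CPM, which is 6.70-fold (log2 fold change -2.74, SE 0.08, adjusted p = 4.39e-36, edgeR). All 3 activated libraries lay far below the resting ones for Fasn, whereas for Acly the distance between the groups was small. Because these are bulk libraries, fewer cells that express a gene and less of its RNA per cell cannot be told apart. A stretch of 64.3% of the longest Acaca transcript matches the pseudogene Gm5182 at 95% identity or more. Gm5182 was not found among the genes with a read count, so that the Acaca counts are uncertain by an unknown share.

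Of the elongases, Elovl1 rose and Elovl5 fell, and Elovl6 was left with few reads. Elovl1, which extends saturated and monounsaturated acyl chains, was counted at 68.6, 73.9 and 73.9 CPM in M0 and at 103, 106 and 101 CPM after IFNγ + LPS. It was higher in all 3 activated libraries, with a log2 fold change of 0.52 (SE 0.06, adjusted p = 2.37e-10, edgeR), which was 0.05 and short of the threshold (adjusted p = 0.446) when libraries were scaled by their size only. Of its exons, 53 bases are shared with Cdc20 on the opposite strand, and the use of strand in counting is not given in the sources used here. Cdc20 itself went the other way, from 789 reads in the 3 M0 libraries to 7 after IFNγ + LPS. Elovl5, which extends polyunsaturated fatty acids, fell from 68.6, 75.1 and 65.2 CPM to 31.0, 32.4 and 24.9 CPM (log2 fold change -1.24, SE 0.09, adjusted p = 1.88e-18, edgeR). Elovl6, which takes palmitate to stearate, was counted at 11.2, 12.7 and 10.6 CPM in M0 and at 0.421, 1.26 and 1.69 CPM after IFNγ + LPS. The latter values rest on 2, 7 and 9 reads. The fitted log2 fold change of -3.30 is a description, since Elovl6 entered the test only through the libraries without IFNγ + LPS, where it is high.

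Among the desaturases, Scd2 and Fads1 fell with activation, and Fads2 was left with 1 read. Scd2 was counted at 47.2, 57.8 and 50.1 CPM in M0 and at 33.5, 35.5 and 36.7 CPM after IFNγ + LPS, a log2 fold change of -0.55 (SE 0.09, adjusted p = 1.22e-06, edgeR). Fads1, the delta-5 desaturase, fell from 90.4, 93.5 and 91.9 CPM to 19.8, 17.8 and 22.7 CPM (log2 fold change -2.19, SE 0.09, adjusted p = 1.54e-28, edgeR). For Fads2, the delta-6 desaturase that acts upstream of Fads1, 46, 42 and 36 reads were counted in M0, and 1, 0 and 0 reads after IFNγ + LPS. The ratio of M0 to IFNγ + LPS for Fads2 was 89.9, with an exact 95% interval from 15.8 to 3579.5, and rests on 1 read after IFNγ + LPS. The interval covers counting error only, since the reads were summed over the libraries of a group and the spread between libraries was left out. The reads also carry no molecular identifiers. Fads2 entered the test only through its M0 reads, and its fitted fold change, which depends on a prior count, is not given.

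Over the 9 members tested, 8 were lower, Elovl6 and Fads2 among them, and 1 was higher after IFNγ + LPS, against 36.2% lower and 37.1% higher of all genes tested. The groups did not overlap for any of the 9, as was the case for 75.4% of all genes tested. The median log2 fold change was -1.24, also with Fads2 set at the ratio above, and 0.01 over all genes. The median of the members includes Elovl6 and Fads2 and is, like the counts, a description. Without Fads2 it was -1.02 over 8 members, Elovl6 still among them. With libraries scaled by size alone, the median of all genes was -0.46, and the share of higher genes among those called went from 50.6% to 25.0%. Under that scaling 8 members were lower and none was higher.

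**Figure D2:**
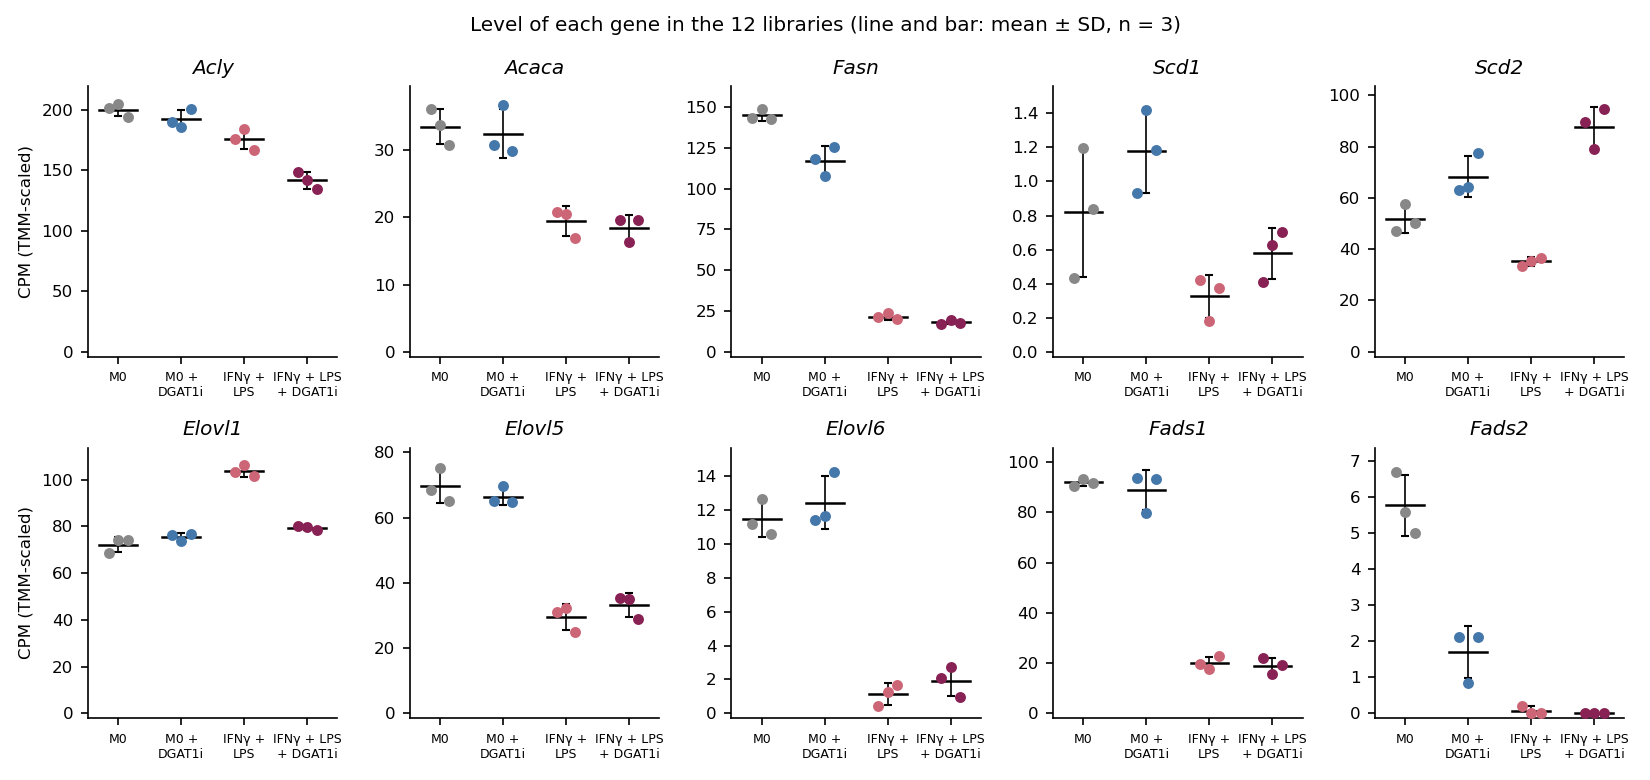
TMM-scaled CPM of each of the 10 members in the 12 libraries, by group on the horizontal axis, with points for libraries and lines and bars for mean ± SD (n = 3). Fasn, Fads1, Elovl5 and Elovl6 are low in both activated groups, Elovl1 is highest in IFNγ + LPS without DGAT1i by this scaling, and Scd2 stands at 79.1 to 94.6 CPM in IFNγ + LPS with DGAT1i, above IFNγ + LPS alone (33.5 to 36.7 CPM).

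In the presence of DGAT1i, activation again lowered both Fasn and Fads1, while Scd2 was not lowered and Elovl1 did not pass the threshold. The levels given here are those of the 6 libraries with DGAT1i, and the tests come from the same fit over all 12 libraries. Fasn went from 118, 107 and 125 CPM to 17.1, 19.4 and 17.5 CPM (log2 fold change -2.70, SE 0.09, adjusted p = 7.18e-34, edgeR). Fads1 fell from 93.5, 79.8 and 93.3 CPM to 21.8, 15.4 and 19.1 CPM, with a log2 fold change of -2.24 (SE 0.10, adjusted p = 5.59e-28, edgeR). Their log2 fold changes differed from those without the inhibitor by 0.05 (95% interval -0.23 to 0.32) for Fasn and by -0.05 (95% interval -0.34 to 0.25) for Fads1. Log2 fold changes of the other members that fell were -0.44 for Acly, -0.81 for Acaca and -0.997 for Elovl5 (edgeR, adjusted p = 1.35e-09, 1.96e-08 and 1.32e-14). For Elovl6, again as a description, the fitted value was -2.67. Fads2 had 16, 6 and 16 reads in M0 with DGAT1i and 0 reads in all 3 libraries with IFNγ + LPS and DGAT1i. Taking 3 reads per group as the floor, it was at least 7.97-fold lower.

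Scd2, in contrast, was counted at 63.2, 64.2 and 77.6 CPM in M0 with DGAT1i and at 89.5, 79.1 and 94.6 CPM after IFNγ + LPS with DGAT1i. Its log2 fold change was 0.36 (SE 0.08, adjusted p = 1.17e-04, edgeR), but -0.064 (adjusted p = 0.481) when libraries were scaled by their size only, so the direction of this change rests on the scaling. Elovl1 stood at 76.2, 73.5 and 76.5 CPM and at 80.3, 79.9 and 78.2 CPM. Its log2 fold change of 0.08 (95% interval -0.06 to 0.21) did not pass the threshold (adjusted p = 0.323, edgeR), and by library size only it was -0.35 and passed as lower (adjusted p = 8.33e-06). In all, 7 of the 9 members tested were lower, Elovl6 and Fads2 among them, and 1 was higher, against 35.3% lower and 35.3% higher of all genes tested. The groups did not overlap for any of the 9, compared with 72.5% of all genes. Without Fads2, the median log2 fold change was -0.90 over 8 members, Elovl6 still among them. Over the 9 members it was -0.997, also with Fads2 at its bound and again as a description, and -0.01 over all genes. Scaling by library size only moved the latter to -0.43 and the share of higher genes among those called from 50.0% to 25.5%, and under it 8 members were lower and none was higher.

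**Figure D3:**
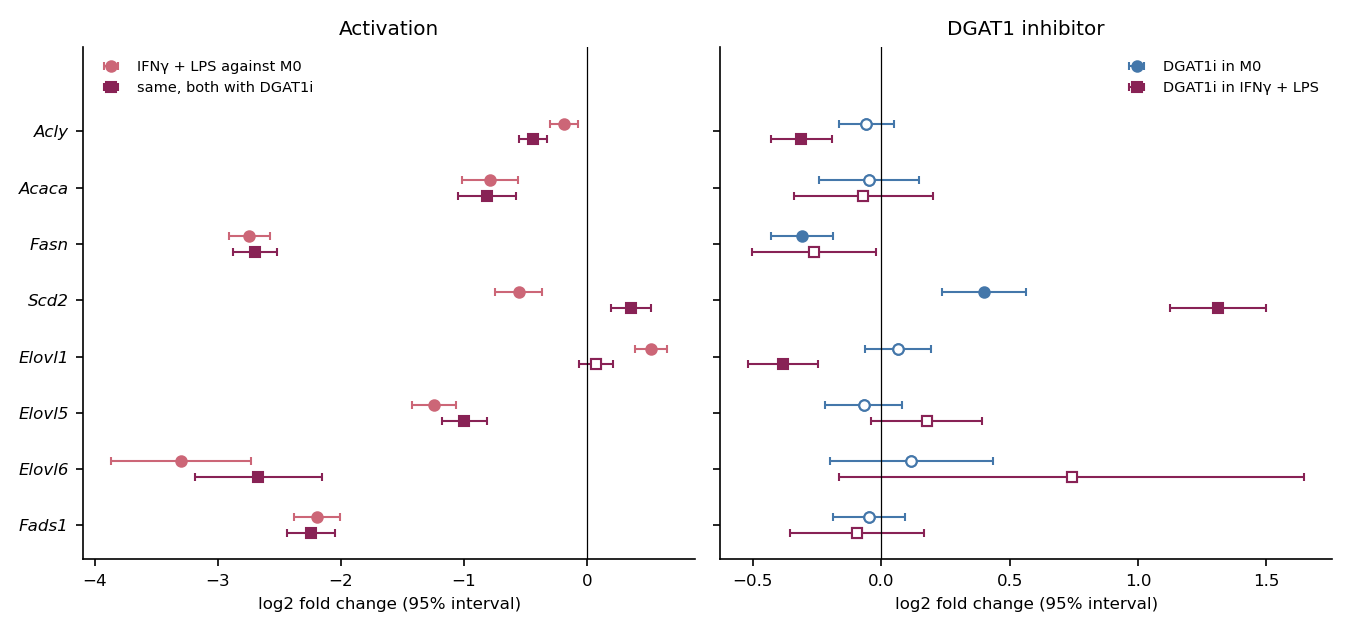
Log2 fold changes with 95% intervals from edgeR for the 8 members with enough reads, for activation without and with DGAT1i (left) and for DGAT1i in M0 and in IFNγ + LPS (right). Filled symbols have an adjusted p under 0.05, which for Elovl6 on the left carries no weight, as it entered the test only through resting libraries. On the left the gap between paired symbols is widest for Scd2 (-0.55 and 0.36), then for Elovl6 (-3.30 and -2.67, a difference that did not pass the threshold) and Elovl1 (0.52 and 0.08). The values of Scd2 and Elovl1 with DGAT1i turn negative when libraries are scaled by size only, and on the right Scd2 in IFNγ + LPS stands apart at 1.31.

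In resting macrophages DGAT1i lowered Fasn and raised Scd2, and Fads2 had fewer reads with it. Fasn was counted at 118, 107 and 125 CPM with DGAT1i, below each of the 3 M0 libraries given above. Its log2 fold change was -0.31 (SE 0.06, adjusted p = 6.42e-05, edgeR). Scd2 was higher, at 63.2, 64.2 and 77.6 CPM against 47.2, 57.8 and 50.1 CPM, with a log2 fold change of 0.40 (SE 0.08, adjusted p = 1.34e-04, edgeR). Fads2 had 46, 42 and 36 reads in M0 and 16, 6 and 16 reads with DGAT1i, a ratio of 3.35 (exact 95% counting interval 2.31 to 4.95). Its edgeR test is not given, since Fads2 entered it only through its M0 reads.

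For the other 6 members the change by DGAT1i in M0 did not pass the threshold. Their log2 fold changes ranged from -0.07 for Elovl5 (95% interval -0.22 to 0.08) to 0.12 for Elovl6 (95% interval -0.20 to 0.43). The interval was -0.17 to 0.05 for Acly, -0.24 to 0.15 for Acaca, -0.06 to 0.19 for Elovl1 and -0.19 to 0.09 for Fads1. Changes larger than these bounds would lie outside the 95% intervals. Counted over the members tested, 1 was higher and 2, Fads2 among them, were lower, against 11% higher and 13.4% lower of all genes. The groups did not overlap for 3 of 9 members, near the 37.8% of all genes. The median log2 fold change was -0.05 for the members and 0.0037 for all genes. By library size only, the share of higher genes among those called went from 45.2% to 29.7%, with the calls of these members kept at 1 higher and 2 lower.

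In macrophages activated by IFNγ + LPS, DGAT1i raised Scd2 and lowered Acly and Elovl1. Scd2 went from 33.5, 35.5 and 36.7 CPM to 89.5, 79.1 and 94.6 CPM. Every library with the inhibitor was above every library without it, and the change was 2.48-fold (log2 fold change 1.31, SE 0.09, adjusted p = 6.77e-16, edgeR). Acly fell from 176, 185 and 167 CPM to 148, 142 and 134 CPM, with a log2 fold change of -0.31 (SE 0.06, adjusted p = 3.15e-05, edgeR). Elovl1 fell from 103, 106 and 101 CPM to 80.3, 79.9 and 78.2 CPM (log2 fold change -0.38, SE 0.07, adjusted p = 8.77e-06, edgeR). In both groups with DGAT1i, activated or not, Elovl1 therefore stood between 73.5 and 80.3 CPM. These directions held under each scaling tried.

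Fasn was counted at 17.1, 19.4 and 17.5 CPM with IFNγ + LPS and DGAT1i, below the 19.9 to 23.6 CPM without the inhibitor. Although the groups did not overlap, its log2 fold change of -0.26 (95% interval -0.50 to -0.02) did not pass the threshold after adjustment (adjusted p = 0.0958, edgeR). Elovl6 stood at 2.06, 2.71 and 0.934 CPM, from 10, 13 and 4 reads, and its log2 fold change of 0.74 had a 95% interval from -0.16 to 1.65. The interval for Elovl5 was -0.04 to 0.39, for Acaca -0.34 to 0.20 and for Fads1 -0.36 to 0.17. With 1 read without and 0 reads with DGAT1i, both at or under the floor of 3 reads, Fads2 gave no fold change here. Over the members tested 1 was higher and 2 were lower, against 13.5% higher and 16.3% lower of all genes. The groups did not overlap for 4 of 9 members, against 39.7% of all genes. The median log2 fold change was -0.08 over the 8 members without Fads2, and -0.01 over all genes.

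The response to DGAT1i differed between activated and resting cells for Scd2 and Elovl1, by a test of the difference itself, and for Acly in some of the settings tried. For Scd2 the log2 fold change was 0.40 in M0 and 1.31 in IFNγ + LPS, a difference of 0.91 (SE 0.12, adjusted p = 2.35e-07, edgeR interaction term). For Elovl1 the values were 0.06 and -0.38, a difference of -0.45 (SE 0.09, adjusted p = 2.68e-04, edgeR). For Acly they were -0.06 and -0.31, and the difference of -0.25 (SE 0.08, adjusted p = 0.0185, edgeR) was lost when IFNγ + LPS replicate 2, M0 with DGAT1i replicate 3 or IFNγ + LPS with DGAT1i replicate 3 was left out, with adjusted p up to 0.0676. It was also lost by library size only (adjusted p = 0.0651) and by DESeq2 (adjusted p = 0.0655). The same differences state how the response to activation changed with the inhibitor present. Fasn, which fell with DGAT1i in M0 and not past the threshold in IFNγ + LPS, showed no detectable difference between these responses, at 0.05 with a 95% interval from -0.23 to 0.32. Of all genes tested, 8.66% had a higher and 9.8% a lower response in activated than in resting cells, against 1 and 2 of the 9 members. Scaling by library size only moved the share of higher genes among those called from 46.9% to 58.2%, and left 1 member higher and 1 lower.

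Scd1 and Scd2 carry out the same reaction, and nearly all reads for it came from Scd2. Scd1 had 3, 9 and 6 reads in M0, 2, 1 and 2 after IFNγ + LPS, 7, 10 and 9 in M0 with DGAT1i, and 2, 3 and 3 with both. Per exon length, Scd2 was 43.2 to 97.0 times as abundant as Scd1 in M0 and 71.2 to 176 times after IFNγ + LPS. With DGAT1i the ratio was 40.5 to 60.9 in resting and 113 to 195 in activated cells. The ranges with DGAT1i did not overlap, and those without it did. At this depth no change of Scd1 was detectable: 18 reads in M0 against 5 after IFNγ + LPS gave a ratio of 2.61 with an exact 95% counting interval from 0.934 to 8.99. Tested without the filter on low counts, Scd1 had adjusted p between 0.155 and 1.00 in the 5 comparisons by edgeR. The longest Scd2 transcript matches Scd1 at 95% identity or more over 11.4% of its length, so that a few of these reads may have been split between the pair. Scd3 had 0 reads, and Scd4 had 2 to 5 reads per group.

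Other genes of the pathway were taken from lists that follow its steps. One list was drawn around the substrates and cofactors of fatty acid synthesis, and also holds enzymes of mitochondrial fatty acid synthesis, an enzyme that breaks down malonyl-CoA and a regulator of acetyl-CoA carboxylase. Of its 11 tested genes, 3 were higher (27.3%) and 4 lower (36.4%) after IFNγ + LPS, near the 37.1% and 36.2% of all genes tested, with a median log2 fold change of 0.0014. Acss2, which makes acetyl-CoA from acetate, rose from 3.05, 2.26 and 1.67 CPM to 19.6, 22.1 and 21.0 CPM (log2 fold change 3.16, adjusted p = 2.87e-22, edgeR), opposite to Acly. The NADPH-forming enzymes moved apart, with log2 fold changes of 1.39 for malic enzyme (Me1) and -2.12 for isocitrate dehydrogenase (Idh1). Mid1ip1, which promotes the polymerization of acetyl-CoA carboxylase, fell by 1.82 on the log2 scale. With DGAT1i in IFNγ + LPS, 4 of these 11 genes were higher and none lower, against 13.5% and 16.3% of all genes tested, with a median log2 fold change of 0.27. Among the 4, Me1 lost its call with DESeq2 (adjusted p = 0.0599) and without IFNγ + LPS replicate 1 (adjusted p = 0.0683). Acss2 again rose most, from 19.6, 22.1 and 21.0 CPM to 41.2, 39.2 and 41.8 CPM (log2 fold change 0.96, adjusted p = 1.98e-09, edgeR).

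Among 14 other tested genes of elongation and desaturation, 1 rose (7.14%) and 11 fell (78.6%) after IFNγ + LPS, against 37.1% and 36.2% of all genes tested, with a median log2 fold change of -0.58. As over the members, these counts and this median are descriptions without weight for the direction. They include Fads3, which did not pass the filter among the activated libraries alone. The gene that rose was Cyb5a, the cytochrome b5 that passes electrons to the desaturases. It went from 67.7, 72.3 and 78.7 CPM to 155, 151 and 161 CPM (log2 fold change 1.09, adjusted p = 1.81e-16, edgeR). The desaturase homologue Fads3 had a fitted log2 fold change of -2.91. As for Elovl6, that value is a description, since Fads3 did not pass the filter in the fit of only the activated libraries. With DGAT1i in IFNγ + LPS, 3 of the 14 rose and 3 fell (21.4% each, against 13.5% and 16.3% of all genes tested). Cyb5a rose further, to 317, 249 and 262 CPM (log2 fold change 0.83, adjusted p = 1.07e-12, edgeR), and was also higher with DGAT1i in M0 (log2 fold change 0.38, adjusted p = 1.37e-04, edgeR). Hacd4, a dehydratase of the elongation cycle, rose by 0.67 and Cyb5r1 fell by 0.38 on the log2 scale.

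Of 15 tested regulators of these genes, 5 rose and 9 fell after IFNγ + LPS, against 37.1% and 36.2% of all genes tested. Srebf1 was counted at 80.5, 89.8 and 75.3 CPM in M0 and at 61.5, 61.2 and 58.4 CPM after IFNγ + LPS (log2 fold change -0.44, adjusted p = 1.06e-06, edgeR). Srebf2, which encodes the related factor for cholesterol synthesis, fell by 1.64, and Insig1, the protein that retains SREBPs in the endoplasmic reticulum, fell by 0.81 on the log2 scale. Nr1h3, which encodes LXRα, rose from 23.2, 13.7 and 20.7 CPM to 149, 123 and 125 CPM (log2 fold change 2.79, adjusted p = 1.82e-11, edgeR), and Nr1h2, which encodes LXRβ, had a log2 fold change of 1.10. The gene for the carbohydrate response factor ChREBP, Mlxipl, had 0 to 3 reads per group and was not tested. On activation, Srebf1 and Nr1h3 thus moved in opposite directions.

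With DGAT1i in IFNγ + LPS, 2 of the 15 regulators were higher and 3 lower (13.3% and 20.0%, against 13.5% and 16.3% of all genes tested). One of the 3 was Srebf2 (adjusted p = 0.0475, edgeR), whose call was lost in 4 of 7 other ways of processing and in 6 of 12 fits with a library left out. Nr1h3 fell to 58.9, 56.1 and 47.9 CPM, a log2 fold change of -1.28 (adjusted p = 1.06e-06, edgeR). Rxra, the partner of the liver X receptors, rose by 0.54 and Insig1 fell by 0.44 on the log2 scale. Srebf1 stood at 52.7, 61.1 and 59.1 CPM, and its log2 fold change of -0.07 (95% interval -0.24 to 0.10) did not pass the threshold (adjusted p = 0.601, edgeR). In resting cells DGAT1i lowered Srebf1 by 0.30 and Insig1 by 0.45 on the log2 scale (adjusted p = 8.41e-04 and 1.25e-05, edgeR). In M0 with DGAT1i, Fasn and Srebf1 were both lower and Scd2 was higher, and a link between these changes was not tested.

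Genes that use or sense the products also moved in both directions. Of 6 tested acyl-CoA synthetases and transporters, 3 rose and 2 fell after IFNγ + LPS (against 37.1% and 36.2% of all genes tested). Acsl1 rose from 46.5, 47.0 and 46.5 CPM to 2284, 2166 and 2144.5 CPM (log2 fold change 5.56, adjusted p = 1.95e-55, edgeR), whereas Acsl3 fell by 2.98 on the log2 scale. DGAT1i lowered Acsl1 in activated cells, to 1727, 1566 and 1521 CPM (log2 fold change -0.45, adjusted p = 3.72e-10, edgeR). Of 10 targets of the liver X receptors and SREBP2, 4 rose and 5 fell after IFNγ + LPS (against 37.1% and 36.2% of all genes tested). The largest increase among them was that of the sterol exporter Abcg1, with a log2 fold change of 1.84. Abca1, of the same list, went the other way (log2 fold change -0.77, adjusted p = 4.40e-17, edgeR). The largest decreases were those of the sterol synthesis genes Sqle, at -3.67, and Idi1, at -3.43. Idi1 did not pass the filter in the fit of only the activated libraries, so its value and its place in the count are descriptions. Dgat1, whose product is the target of T863, stood at 12.7 ± 2.36 CPM in M0 and 18.7 ± 1.28 CPM after IFNγ + LPS (SD, n = 3), against 15.6 ± 0.904 and 18.7 ± 2.27 CPM with the inhibitor, and DGAT1i did not change it past the threshold in either state (adjusted p = 0.107 and 0.957, edgeR).

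**Figure D4:**
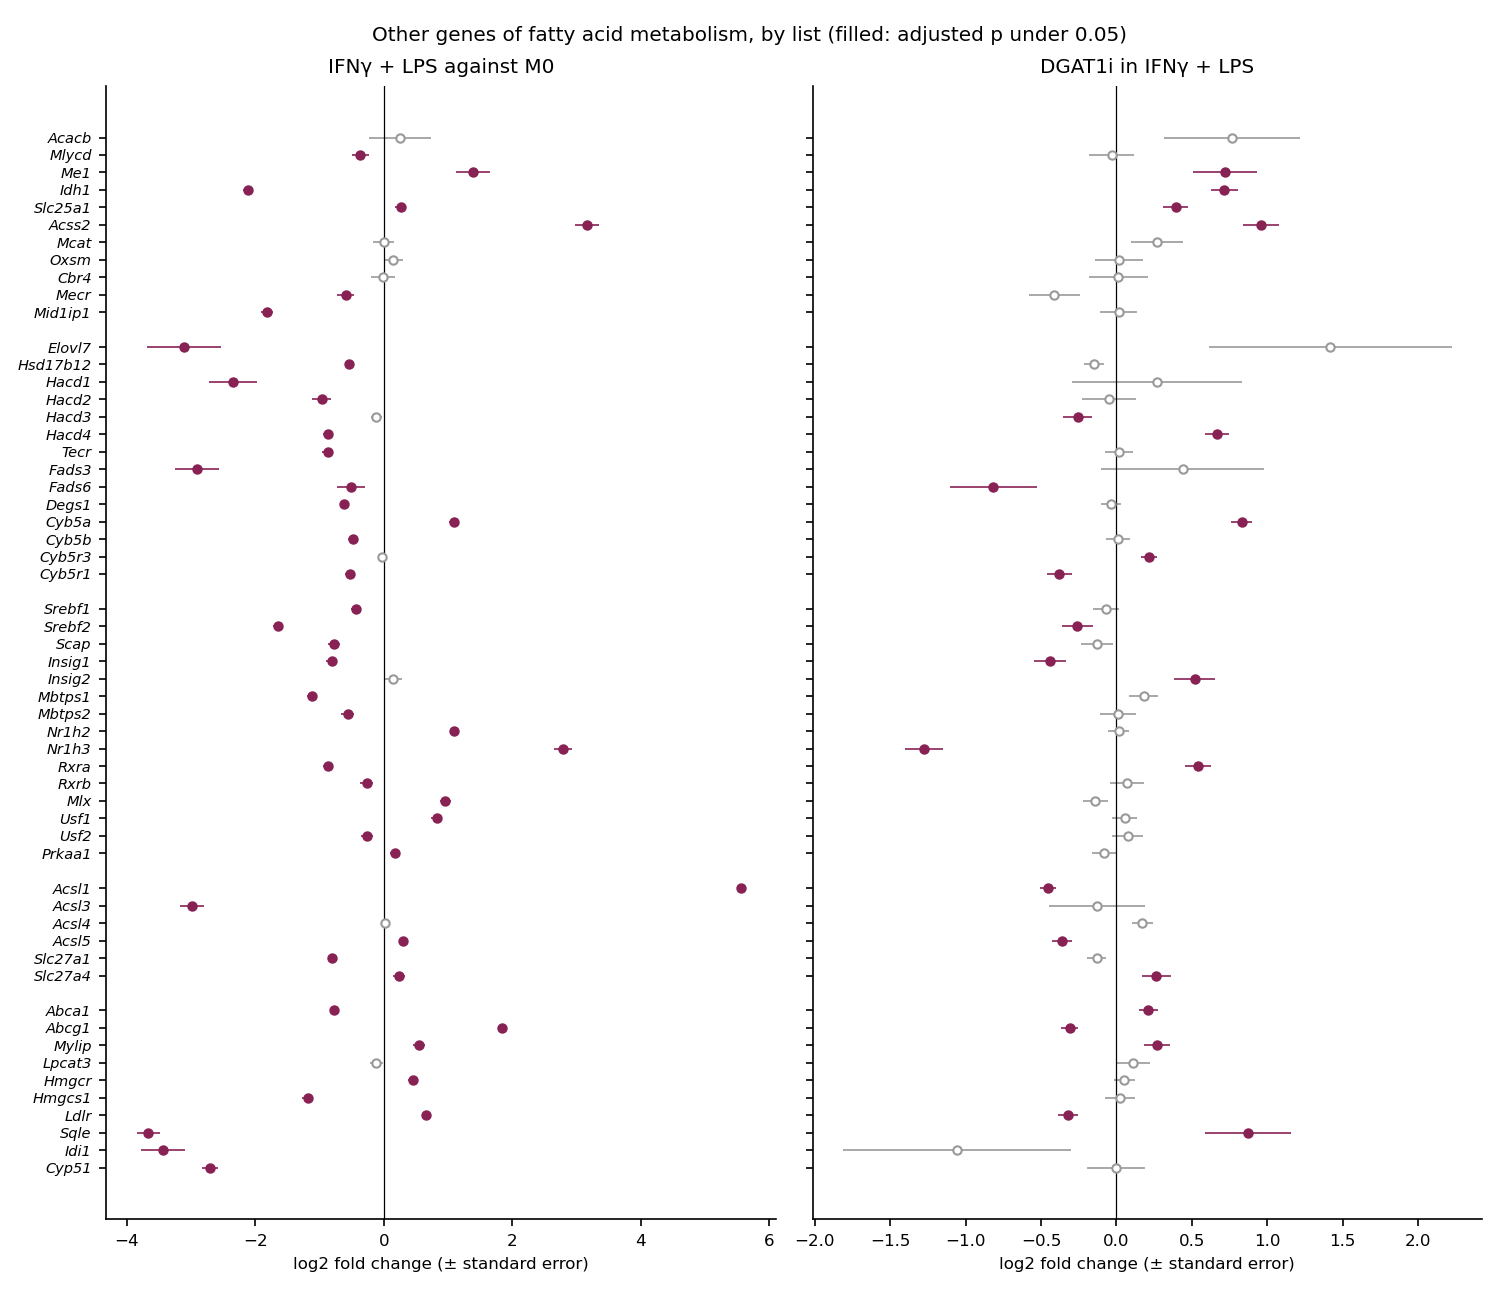
Log2 fold change ± SE from edgeR of the other genes of fatty acid metabolism, grouped from top to bottom into supply and cofactors, elongation and desaturation, regulators, acyl-CoA synthetases and transporters, and targets of the liver X receptors and SREBP2, for IFNγ + LPS against M0 (left) and DGAT1i in IFNγ + LPS (right). Filled points have an adjusted p under 0.05. On the left this carries no weight for Fads3 and Idi1, which did not pass the filter among the activated libraries alone. Acsl1 stands highest on the left at 5.56, and Nr1h3 lies at 2.79 on the left and -1.28 on the right.

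The labelled cell type was checked by its markers. All 8 macrophage markers, among them Csf1r and Adgre1, had reads in every group, and their sum was 13131 to 14358 CPM in M0, 8323 to 8980.3 CPM after IFNγ + LPS, 16054 to 18075 CPM in M0 with DGAT1i and 7923 to 8891 CPM with both. Single macrophage markers moved both ways after IFNγ + LPS, with log2 fold changes from -1.71 for Lyz2 to 3.23 for Fcgr1. Of the 8, 3 were higher and 5 lower, against 37.1% and 36.2% of all genes tested. The sum of 8 neutrophil and granulocyte precursor markers was 63.0 to 81.0 CPM in IFNγ + LPS with DGAT1i, against 15.2 to 25.5 CPM in IFNγ + LPS, 31.6 to 38.7 CPM in M0 and 22.9 to 29.0 CPM in M0 with DGAT1i. Of the 4 tested, 4 were higher with DGAT1i in IFNγ + LPS, while Ly6g was at 0 in all groups and Elane in all but M0. Their part in the change of Scd2 was not tested. Dendritic cell markers summed to 0.133 to 0.835 CPM in M0, 8.06 to 11.2 CPM after IFNγ + LPS, 0.264 to 0.710 CPM in M0 with DGAT1i and 3.50 to 6.77 CPM with both, and their part in the changes of the members was not tested. In the same order of groups, Ccr7 had 0, 53, 1 and 59 reads and Xcr1 1, 86, 0 and 12 reads. Stromal, endothelial and adipocyte markers summed to 0.418 to 1.33 CPM in M0, 2.81 to 4.84 CPM after IFNγ + LPS, 0.264 to 0.664 CPM in M0 with DGAT1i and 2.26 to 2.33 CPM with both. In both activated groups most of these reads were from Pecam1, an adhesion molecule of endothelial and myeloid cells, which had 5, 52, 4 and 30 reads in that order of groups, while Adipoq and Plin1 were at 0, and the part of this list was not tested either. Lymphocyte and erythroid markers summed to at most 0.562 CPM.

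For the 3 members whose group means ranged most widely, the genes with the most similar pattern were sought by Pearson's r of log2 CPM over the 12 libraries. These r values are descriptions, since the libraries fall into 4 groups and share a scaling. Fads2 was most like H2afx (0.990), Pif1 (0.989) and Hjurp (0.989), and Elovl6 was most like Polr3g (0.987), Abl1 (0.984) and Arhgef4 (0.982). Fasn was most like Clspn (0.999), Man1a (0.999) and Plau (0.998). A high r was common: 11.8% of all genes tested exceeded 0.9 for Fads2, 11.8% for Elovl6 and 17.9% for Fasn.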

How the data were processed

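The authors deposited raw read counts per gene for 12 libraries, without normalization. Per the labels, the submitters' processing notes name GRCm38 and DESeq2. Not given in the sources used here are the aligner, the counting tool, the annotation release and whether strand was used. The labels name a NEBNext low-input kit and the study's methods a TruSeq stranded kit. Of the 47937 genes, 25746 had 0 reads in all libraries. Identifiers were matched without their version to GENCODE M21 on GRCm38 (47310 matched), which gave symbols, positions and exon lengths. RPKM was computed from TMM-scaled counts and the length of all annotated exons.

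Tests used edgeR 4.0.16 in R 4.3.3 (filterByExpr, TMM, glmQLFit robust, glmQLFTest), with 1 mean per group over all 12 libraries, 5 contrasts, and Benjamini-Hochberg adjustment over the 11760 genes tested. The threshold was an adjusted p of 0.05. Libraries of a group correlated with r of 0.988 to 0.992, and the common biological coefficient of variation was 0.0507. Alternatives were DESeq2 1.42.0, RLE size factors, library size only, no filter, a mean CPM of 1, only the 6 libraries compared, a replicate block and each library left out. Copies of the members were searched with BLAST 2.17.0 at 95% identity. Plots were made in Python 3.11.15 (matplotlib 3.10.9).

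The members and the lists were chosen with earlier results of these data known. All members are named. Of each other list, at most the 2 largest increases and the 2 largest decreases per contrast are named, with Srebf1, Insig1, Nr1h3 and Mlxipl in any case, and a gene so named in 1 contrast may be given in others. Dgat1 is named as the target of the inhibitor. For the 3 members with the widest range, the 3 most similar genes are named. Cdc20, Gm5182, Scd3 and Scd4 are named as genes that overlap or copy a member.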

Additional observations from a re-analysis of the deposited data

Results flagged for a closer look

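For 3 members the response to DGAT1i differed between activated and resting cells by the interaction term in edgeR. Of the 9 members tested, 1 was higher and 2 were lower, against 8.66% and 9.8% of all genes tested. The log2 difference, IFNγ + LPS minus M0, was 0.91 for Scd2 (adjusted p = 2.35e-07), -0.45 for Elovl1 (adjusted p = 2.68e-04) and -0.25 for Acly (adjusted p = 0.0185). The call for Acly was lost by library size only (adjusted p = 0.0651), by DESeq2 (0.0655) and in 3 of 12 fits with a library left out. All 3 activated libraries with DGAT1i were above all 3 without it for Scd2 and below them for Elovl1 and Acly. Among the other genes named, the difference was positive for Idh1 (0.65), Abca1 (0.58), Cyb5a (0.45) and Hacd4 (0.43). It was negative for Nr1h3 (-1.63), Cyb5r1 (-0.53), Acsl1 (-0.45) and Abcg1 (-0.35).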

How the results depend on the processing

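There were 7 other ways of processing, of which the fit of only the 6 libraries compared gives no interaction and dropped members that then failed the filter. Wherever a member was tested, its call was kept except as named here. Scaling by library size only turned the change by IFNγ + LPS in the presence of DGAT1i to -0.064 for Scd2 and to -0.35 for Elovl1 (adjusted p = 8.33e-06, edgeR), left Elovl1 without DGAT1i at 0.05, and left the Acly interaction at -0.20 (adjusted p = 0.0651). Fads2 did not pass the filter in the fit of only the 6 libraries with DGAT1i, where 6 members were lower. DESeq2 left the Acly interaction at -0.24 (adjusted p = 0.0655). With each library left out, the Acly interaction lay between -0.29 and -0.22 (adjusted p up to 0.0676), and no other member call was lost. With the longest transcript as length, the median level of the members was 3.99 RPKM in IFNγ + LPS and 3.72 RPKM with DGAT1i, against 3.07 and 2.78 RPKM. Deviations of same-numbered libraries correlated weakly (r of -0.02 to 0.07 over 18 pairs, 4 of them negative), although 9 of 12 libraries correlated best with their own number, a hint from the data and not from the design. With the replicate number as a block, 8635 genes changed by IFNγ + LPS and 3568 by DGAT1i in IFNγ + LPS, and the block changed no member call. Depth limits Scd1, Fads2 and Elovl6, which rest on few reads in activated cells.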
